A study of Mus musculus with 12 samples.

Results

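Intestinal RNA of mice that carry the PparaΔIE genotype and were kept on chow was compared with that of Pparafl/fl mice on the same diet. The comparison takes the 3 libraries of each of these groups, 6 of the 12 libraries of the study, and asks which genes differ by genotype without a high-fat load. Pparafl/fl mice, called floxed here, carry Ppara alleles with recombinase sites around the part to be removed. The name PparaΔIE, replaced by IEKO here, by convention marks deletion in intestinal epithelial cells. All mice were male C57BL/6 and 7 to 8 weeks old, and the diets were given over 10 days. The other 6 libraries came from the same genotypes after the labelled 60% high-fat diet (HFD) and are used only to set a value on HFD beside one on chow. Neither a Cre line or its promoter, nor the deleted exons, nor the intestinal segment is named in the labels. Nor is it said there that each library is a separate mouse, so a p-value here measures only sample spread, which may be technical. Of 47643 genes in the table, 17602 had enough counts to be tested.

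PPARA is a nuclear receptor that is activated by fatty acids and pairs with RXR on DNA. In liver and small intestine it is known to drive genes of fatty acid uptake, of mitochondrial and peroxisomal oxidation and of ketone body synthesis. The intestinal epithelium holds absorptive enterocytes, mucus-making goblet cells, Paneth cells that secrete defensins, hormone-making enteroendocrine cells and chemosensory tuft cells, and bulk RNA from intestine also carries the immune and stromal cells beneath it.

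Totals of expected counts ran from 34720167 to 53959367 per library in floxed chow and from 33620991 to 39751918 in IEKO chow. Levels are given as CPM, counts scaled to library size with TMM factors, and differences as log2 fold changes of IEKO over floxed, with the standard error (SE). A gene is called where the adjusted p of edgeR's quasi-likelihood test is under 0.05. Epithelial markers were abundant in every library, with Epcam at 1791 to 2156 CPM and Vil1 at 2809 to 3201 CPM. The ileal bile acid binding protein Fabp6 stood at 3067 to 3895 CPM. The enterocyte marker Fabp1, by contrast, stood at only 1.98 to 3.83 CPM.

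2 chow libraries lay between the others of their group. Among 577 genes that differed at least 1.5-fold between IEKO chow 1 and IEKO chow 2, IEKO chow 3 had an intermediate level for 571 (99.0%), with a median position 54.5% of the way from library 1 to library 2. For floxed chow 1 the share was 20 of 24 genes (83.3%). Over the other 10 libraries, with 9 to 274 genes each, this share ran from 6.33% to 79.0%. Across 83 immunoglobulin V genes, which mark the B cell clones of an animal, libraries correlated at 0.896 to 0.963 within floxed chow and at 0.603 to 0.888 within IEKO chow, against 0.292 to 0.778 between libraries of different groups. They run over genes, which do not count as replicates. All libraries were kept as samples, and whether any share RNA was not tested. Main results are given a second time with these 2 libraries left out, called the 2-against-2 comparison here. The libraries that stay correlated over the V genes at 0.896 in floxed chow and at 0.603 in IEKO chow. The likeness within floxed chow is therefore not removed by this comparison.

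Ppara itself was lower in IEKO chow, but the difference did not pass edgeR's test. DESeq2 and limma voom called Ppara as lower, as they did 0.235% and 16.1% of the genes they tested. limma voom gave IEKO chow 3 a sample weight of 8.12, against 0.372 and 0.476 for IEKO chow 1 and 2. The level of Ppara was 19.2, 18.1 and 22.0 CPM in floxed against 8.42, 15.6 and 13 CPM in IEKO (log2 fold change -0.68, SE 0.21, adjusted p = 0.25). The groups did not overlap, and IEKO chow 2 kept the highest level of its group. In the 2-against-2 comparison the log2 fold change was -0.74. Gene-level counts hold reads from any exon that the deletion leaves and from cells outside the epithelium, so they do not measure how complete the deletion was. The other receptors of the family and their partners, 12 tested genes with RXRs and coregulators, had a median log2 fold change of 0.06. edgeR called none of the 12 and none had an unadjusted p under 0.05. DESeq2 called 0 as well, and limma voom called 3 as higher, while it called 15% of all genes as higher. Among these coregulators Ncor1, a corepressor, stood at 193, 201 and 195 CPM in floxed against 196, 242 and 221 CPM in IEKO (log2 fold change 0.17).

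22 genes were called, 0.125% of those tested, of which 14 rose (0.0795%) and 8 fell (0.0454%). All 22 had groups that did not overlap. Among all tested genes, every IEKO library lay above every floxed one for 10% and below for 12.1%. The calls rest on the same levels, so the lack of overlap is no added support. An unadjusted p under 0.05 was reached by 13% of tested genes, by 7.35% as higher and by 5.68% as lower in IEKO. The called genes split into 7 immunoglobulin V segments and 15 other genes, and of the 15 others 12 rose and 3 fell. DESeq2 called 0.632% of the genes it fitted (0.397% higher, 0.235% lower) and limma voom with sample weights 31.1% (15% higher, 16.1% lower), the shares against which their counts below are read. Leaving out 1 library changed the total strongly, from 517 calls without IEKO chow 1 to 1 call without floxed chow 1 or without IEKO chow 3, and in the 2-against-2 comparison Mt1 was the only gene called.

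**Figure D1:**
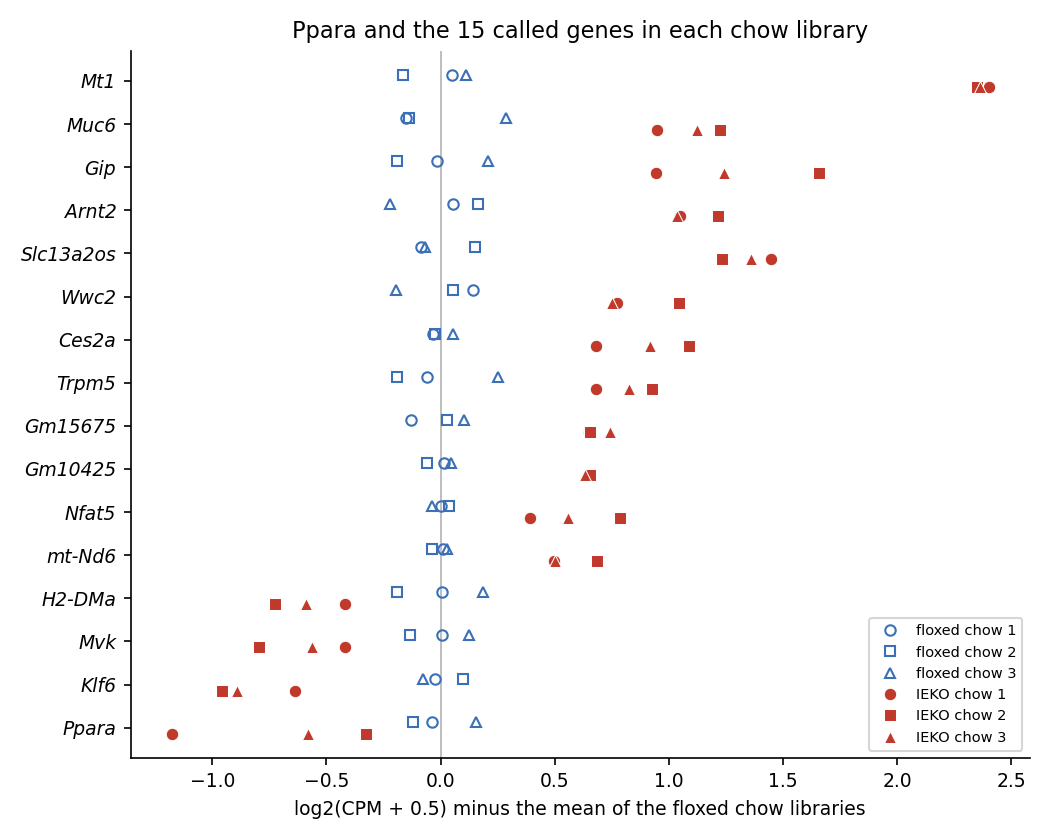
Level of Ppara and of the 15 called genes outside the immunoglobulin segments in each chow library, as log2(CPM + 0.5) minus the mean of the floxed chow libraries (horizontal axis), with 1 line per gene and 1 point per library. For each called gene the 3 IEKO points lie all above or all below the 3 floxed points, and Mt1 shows the widest gap.

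Mt1 had the largest of the called changes outside the immunoglobulin segments. It encodes metallothionein 1, a small protein that binds zinc and copper (chromosome 8, 94179082 to 94180327, mm10). Its level was 48.3, 41.6 and 50.4 CPM in floxed chow against 248, 240 and 242 CPM in IEKO chow. The IEKO libraries were all far above the floxed libraries and close to one another. Mt1 rose 5.20-fold (log2 fold change 2.38, SE 0.13, adjusted p = 6.48e-07), and of the 22 called genes it was the one called in each of the 12 fits that left out 1 library. On HFD the value was 3.35 (SE 0.14, adjusted p = 1.28e-08). The difference between diets was 0.97 on the log2 scale (SE 0.18) and did not pass the test of the interaction after adjustment (adjusted p = 0.33).

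The neighbouring paralog did not pass the test. Mt2, which encodes the second widely expressed metallothionein, starts 6471 bases upstream of Mt1 and stood at 14.1, 12.3 and 15.4 CPM in floxed against 15, 23.2 and 21 CPM in IEKO. The groups overlapped (log2 fold change 0.50, SE 0.24, adjusted p = 0.40). Whether Mt1 differed more than Mt2 was not tested. Over the 19 tested metallothionein and zinc transport genes the median log2 fold change was 0.03, against 0.00 for all genes. At an unadjusted p under 0.05, 3 genes were higher and 1 lower, against 7.35% and 5.68% of all genes. The one at lower level was Slc39a5, an epithelial zinc importer, at 195, 179 and 194 CPM in floxed against 156, 157 and 166 CPM in IEKO (log2 fold change -0.25, adjusted p = 0.20). Slc30a10, a metal exporter, stood at 29.6, 32.0 and 26.7 against 32.3, 43.1 and 36.9 CPM (0.35, adjusted p = 0.34). The promoters of both metallothioneins are shown because the genes lie side by side and only Mt1 was called. Sequences are from RefSeq, build GRCm38.p6, plus strand, from 250 bases before to 50 bases after the gene start, at chr8:94178839-94179138 for Mt1 and chr8:94172368-94172667 for Mt2. Capitals mark matches to the core of the metal response element, TGCACNC or TGCGCNC, on either strand.
Mt1: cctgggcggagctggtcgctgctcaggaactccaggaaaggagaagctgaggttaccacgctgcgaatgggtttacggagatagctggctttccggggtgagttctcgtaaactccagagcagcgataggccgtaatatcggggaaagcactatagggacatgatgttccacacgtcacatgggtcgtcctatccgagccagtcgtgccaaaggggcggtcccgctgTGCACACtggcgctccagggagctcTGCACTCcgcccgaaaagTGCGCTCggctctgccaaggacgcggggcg
Mt2: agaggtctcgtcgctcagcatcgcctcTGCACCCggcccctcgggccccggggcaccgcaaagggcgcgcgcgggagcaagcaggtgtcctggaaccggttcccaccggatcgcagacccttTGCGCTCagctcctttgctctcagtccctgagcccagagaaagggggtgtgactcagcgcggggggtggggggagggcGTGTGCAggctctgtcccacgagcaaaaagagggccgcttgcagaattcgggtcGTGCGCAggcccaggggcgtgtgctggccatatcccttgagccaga
The Mt1 window holds 3 matches and the Mt2 window 4. Such a match is frequent: 35.1% of 11676 tested genes and 25.7% of all 32851 RefSeq promoters of this length have 1 or more, as do 8 of the 17 metallothionein and zinc transport genes with a promoter in the table. The match is a description of letters and says nothing of binding.

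Klf6 was lower on chow and on HFD alike. It encodes a Kruppel-like transcription factor (chromosome 13, 5861482 to 5870394). The level was 268, 291 and 258 CPM in floxed chow against 174, 140 and 146 CPM in IEKO chow, with the IEKO libraries all well under the floxed ones. Klf6 fell by 0.83 on the log2 scale (SE 0.12, adjusted p = 0.022), and by 0.80 on HFD (SE 0.12, adjusted p = 0.027). It was called in 7 of the 12 fits that left out 1 library. Of 15 tested Kruppel-like factors, Klf6 alone was called. Klf7 stood at 11.7, 12.2 and 10.9 CPM in floxed against 15.5, 16.4 and 15.5 CPM in IEKO (log2 fold change 0.45, adjusted p = 0.12), and on HFD it rose (0.56, adjusted p = 0.031). Klf11 stood at 4.38, 4.46 and 4.62 CPM in floxed against 2.13, 3.45 and 2.53 CPM in IEKO (log2 fold change -0.73, adjusted p = 0.20).

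Ces2a encodes a carboxylesterase that hydrolyses lipid and drug esters (chromosome 8, 104734003 to 104741634). Its level was 115, 116 and 122 CPM in floxed against 189, 251 and 222 CPM in IEKO. It rose 1.88-fold (log2 fold change 0.91, SE 0.12, adjusted p = 0.0085) and was called in 9 of the 12 fits that left out 1 library. On HFD the log2 fold change was 0.19 and did not pass (adjusted p = 0.52). All 10 tested carboxylesterases had a log2 fold change above 0, with a median of 0.31, while 49.3% of all genes lay below 0. The members of this family are similar in sequence, so reads may be shared among them and single values are uncertain.

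Gip encodes the incretin of enteroendocrine K cells (chromosome 11, 96024545 to 96030831). It stood at 1.28, 1.07 and 1.57 CPM in floxed against 2.96, 5.16 and 3.74 CPM in IEKO, low levels without overlap. Gip rose 3.0-fold (log2 fold change 1.58, SE 0.26, adjusted p = 0.038), and on HFD its log2 fold change was 0.03. Other hormone genes did not pass the test. Pyy, made by L cells, stood at 29.0, 28.2 and 28.2 CPM in floxed against 27.4, 21 and 23.5 CPM in IEKO (-0.25, adjusted p = 0.34), and the granule protein gene Chgb at 38.4, 38.3 and 38.0 against 39.5, 49.7 and 47.0 CPM (0.25, adjusted p = 0.33). The 15 tested enteroendocrine genes had a median log2 fold change of -0.10.

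Trpm5, the cation channel of tuft cell taste signalling, stood at 9.05, 8.22 and 11.4 CPM in floxed against 15.5, 18.4 and 17.2 CPM in IEKO. It rose 1.78-fold (log2 fold change 0.83, SE 0.15, adjusted p = 0.049) without overlap of the groups. Of 13 tested tuft cell markers 11 had a log2 fold change above 0, with a median of 0.34. At an unadjusted p under 0.05, 5 were higher and 1 lower, against 7.35% and 5.68% of all genes. Each IEKO library on its own lay above the floxed mean by a median of 0.32, 0.28 and 0.28. Among these markers the kinase Dclk1 stood at 10.0, 8.89 and 10.7 CPM in floxed against 12.4, 13.5 and 13.7 CPM in IEKO (log2 fold change 0.42, adjusted p = 0.17). The lectin Siglecf stood at 3.17, 2.98 and 3.03 against 5.46, 4.76 and 4.19 CPM (0.65, adjusted p = 0.29). In the 2-against-2 comparison 3 tuft markers were higher at an unadjusted p under 0.05 (3.61% of all genes) and their median was 0.35. The summed markers, however, ran only from 109 to 121 CPM in floxed against from 125 to 126 CPM in IEKO, and on HFD the median was -0.04. In bulk samples more cells of a type and more RNA per cell cannot be told apart.

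Other called genes that rose have roles in mucus, ion balance and transcription. Muc6, a gel-forming mucin, stood at 0.456, 0.463 and 0.795 CPM in floxed against 1.55, 1.97 and 1.81 CPM in IEKO (log2 fold change 1.61, SE 0.29, adjusted p = 0.049). Arnt2, a partner of bHLH-PAS transcription factors, stood at 1.12, 1.25 and 0.833 against 2.72, 3.11 and 2.69 CPM (1.43, SE 0.24, adjusted p = 0.042). Both were scarce, and in both the IEKO libraries lay clear of the floxed ones. Nfat5, the transcription factor of the response to osmotic stress, stood at 47.6, 48.8 and 46.4 CPM in floxed against 62.6, 82.5 and 70.4 CPM in IEKO (0.59, SE 0.10, adjusted p = 0.044). Wwc2, a scaffold of Hippo signalling, stood at 2.71, 2.52 and 2.04 against 4.48, 5.50 and 4.41 CPM (0.99, SE 0.18, adjusted p = 0.0499). On HFD edgeR called none of these 4 genes, and Muc6 (0.91, adjusted p = 0.19) and Nfat5 (0.29, adjusted p = 0.24) had an unadjusted p under 0.05.

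3 of the called genes are non-coding. Slc13a2os, antisense to the dicarboxylate transporter gene Slc13a2 (chromosome 11, 78394485 to 78405657), stood at 6.22, 7.41 and 6.30 CPM in floxed against 18.9, 16.3 and 17.8 CPM in IEKO (log2 fold change 1.41, SE 0.21, adjusted p = 0.030). Slc13a2 itself stood at 230, 207 and 228 against 254, 177 and 217 CPM, with a log2 fold change of -0.03. Gm10425, which overlaps Exoc3l4 on the other strand, stood at 4.33, 4.08 and 4.43 against 7.01, 7.03 and 6.91 CPM (0.70, SE 0.12, adjusted p = 0.039). The strand setting of the counting is not given in the sources used here, so a share of reads from the overlapping partner cannot be told apart, and Exoc3l4 had a log2 fold change of -0.05. Gm15675, a long non-coding RNA gene next to Cd55, stood at 5.68, 6.40 and 6.76 CPM in floxed against 10.1, 10.1 and 10.8 CPM in IEKO (0.72, SE 0.12, adjusted p = 0.042) and also rose on HFD (0.63, adjusted p = 0.046). It overlaps the antisense gene Gm15674 on the other strand, at 2.30, 1.74 and 2.04 against 4.29, 4.19 and 3.26 CPM (0.94, adjusted p = 0.0502), and for this pair reads of the partner cannot be told apart either. Cd55, the complement decay-accelerating factor, stood at 67.4, 70.1 and 66.2 against 103, 76.8 and 88.7 CPM (0.40, adjusted p = 0.14).

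mt-Nd6, a complex I subunit and the protein encoded on the light strand of the mitochondrial genome, stood at 30.2, 29.2 and 30.6 CPM in floxed against 42.6, 48.6 and 42.7 CPM in IEKO. It rose 1.49-fold (log2 fold change 0.57, SE 0.10, adjusted p = 0.049). mt-Nd6 overlaps mt-Nd5 on the other strand, which stood at 276 to 295 CPM in floxed against 365 to 435 CPM in IEKO. The log2 fold change of mt-Nd5 was 0.48 (SE 0.11, adjusted p = 0.13). For this pair, too, reads of the partner cannot be told apart, so the mt-Nd6 value is uncertain on its own. Of 15 tested mitochondrial genes 86.7% had a log2 fold change above 0, with a median of 0.27, and 46.7% were higher at an unadjusted p under 0.05. The share of all counts in mitochondrial genes was 3.25%, 3.38% and 3.11% in floxed and 3.43%, 4.39% and 3.92% in IEKO, with the highest share in IEKO chow 2. The part of this share in the mt-Nd6 result was not tested. The nuclear genes of the respiratory chain stood the other way: all 30 tested had a log2 fold change below 0, with a median of -0.16, although edgeR called none. Of the 30, 7 were lower at an unadjusted p under 0.05 (5.68% of all genes). DESeq2 called 0, and limma voom called 21 as lower (16.1% of all genes). The complex III gene Uqcrc1, for example, stood at 348, 330 and 350 CPM in floxed against 307, 264 and 284 CPM in IEKO (-0.27, adjusted p = 0.23). The median over the 30 genes was 0.02 in IEKO chow 1 and -0.37 in IEKO chow 2, each against the floxed mean. In the 2-against-2 comparison no member reached an unadjusted p under 0.05, against 1.87% of all genes as lower and 3.61% as higher.

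edgeR called no PPARA target on chow. Of 44 listed targets 41 were tested, and Cyp4a10 and Cyp4a14, classic targets of the liver, had no count in any chow library. DESeq2 called 1 as lower, and limma voom 16 as lower and 1 as higher (16.1% and 15% of all genes). In the edgeR fit 8 were lower and 1 higher at an unadjusted p under 0.05, against 5.68% and 7.35% of all genes. The log2 fold change of 30 lay below 0, with a median of -0.13. All IEKO libraries lay under all floxed ones for 18 targets and above them for 2 (12.1% and 10% of all genes). In the 2-against-2 comparison 2 were lower at an unadjusted p under 0.05, while 1.87% of all genes were. The same list had a median of -0.42 on HFD, where 35 of 41 were lower at an unadjusted p under 0.05 against 6.83% of all genes. At an unadjusted p under 0.05, the genotype difference of 13 targets was lower on HFD than on chow, and that of 1 was higher. The shares over all genes were 3.73% and 2.61%. No target passed the interaction test after adjustment.

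The targets given singly here had lower levels in IEKO chow, without a call by edgeR. Pank1, which makes coenzyme A, stood at 19.3, 20.8 and 20.4 CPM in floxed against 16.1, 15.2 and 15.1 CPM in IEKO, without overlap (log2 fold change -0.38, SE 0.08, adjusted p = 0.092), and its value on HFD was 0.00. Cpt1a, which admits fatty acids to mitochondria, stood at 137, 132 and 135 CPM in floxed against 89.2, 123 and 105 CPM in IEKO (-0.35, adjusted p = 0.32). IEKO chow 1 had the lowest Cpt1a and the lowest Ppara. The median of the mitochondrial fatty acid oxidation genes against the floxed mean, however, was -0.10, -0.30 and -0.22 in IEKO chow 1, 2 and 3. Whether target levels follow Ppara over the libraries was not tested. Of 23 mitochondrial fatty acid oxidation genes 19 lay below 0, with a median of -0.24, and edgeR called 0, as did DESeq2, while limma voom called 14 as lower (16.1% of all genes). An unadjusted p under 0.05 was reached by 8 of the 23 as lower, against 5.68% of all genes. In the 2-against-2 comparison it was reached by 1 (1.87% of all genes). For 15 of the 23 all IEKO libraries lay under all floxed ones (12.1% of all genes). Acadvl, the very long-chain acyl-CoA dehydrogenase, stood at 108, 96.5 and 117 CPM in floxed against 84.6, 77.3 and 87.2 CPM in IEKO (-0.37, SE 0.11, adjusted p = 0.22). On HFD the median of the 23 genes was -0.32.

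**Figure D2:**
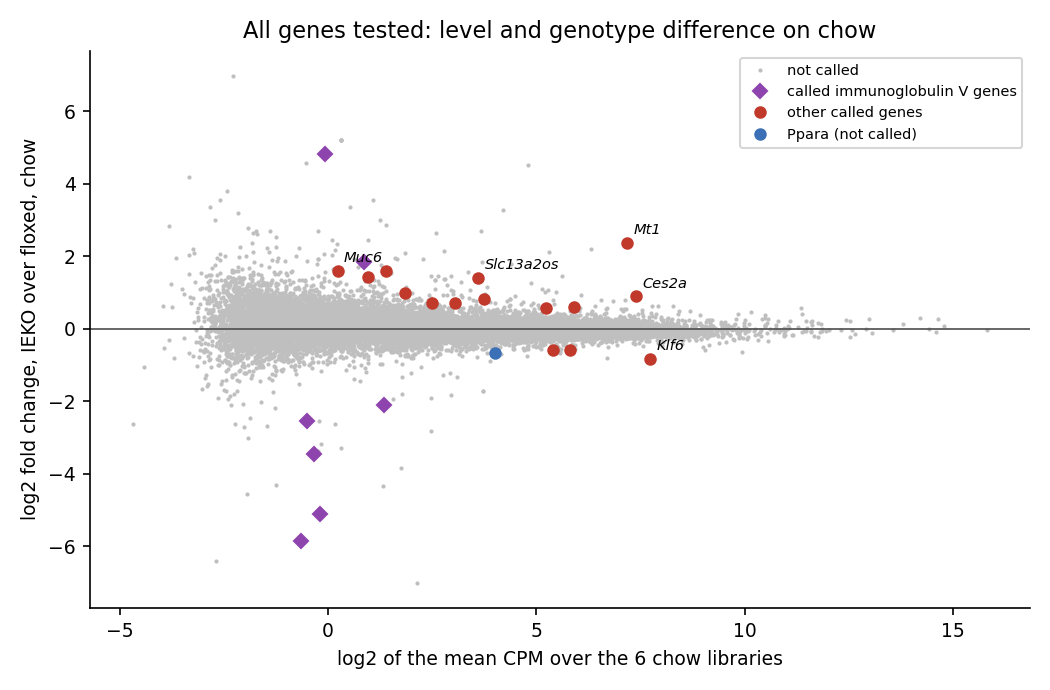
Log2 of the mean CPM over the 6 chow libraries (horizontal axis) against the log2 fold change of IEKO over floxed on chow (vertical axis), with 1 point per tested gene. Red points are the 15 called genes and diamonds the 7 called immunoglobulin V segments; Mt1 stands at 2.38 among abundant genes, the called segments are scarce, and Ppara (blue) lies at -0.68 without a call.

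Levels of cholesterol synthesis genes lay mostly under those of the floxed group. Of 26 tested genes of the pathway and its regulation, 25 had a log2 fold change below 0, with a median of -0.34. At an unadjusted p under 0.05, 20 of 26 were lower, against 5.68% of all genes, and 1, Mvk, was called. For 17 of 26 all IEKO libraries lay under all floxed ones (12.1% of all genes). Mvk encodes mevalonate kinase (chromosome 5, 114444269 to 114460591) and stood at 51.2, 46.4 and 55.5 CPM in floxed against 38.0, 29.2 and 34.3 CPM in IEKO. All IEKO libraries lay under all floxed ones. Mvk fell by 0.59 on the log2 scale (SE 0.09, adjusted p = 0.027) and was called in 8 of the 12 fits that left out 1 library, and on HFD its log2 fold change was -0.36 (adjusted p = 0.14).

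Enzymes before and after Mvk in the pathway had lower levels without a call. Hmgcs1, which makes HMG-CoA, stood at 848, 869 and 840 CPM in floxed against 795, 532 and 643 CPM in IEKO (log2 fold change -0.38, adjusted p = 0.26). Pmvk, the kinase after Mvk, stood at 58.7, 56.9 and 56.8 against 49.0, 28.7 and 39.0 CPM (-0.56, SE 0.14, adjusted p = 0.18). Dhcr7, which makes cholesterol from its last precursor, stood at 41.8, 43.6 and 44.2 CPM in floxed against 34.8, 33.7 and 33.6 CPM in IEKO (-0.34, SE 0.07, adjusted p = 0.092). In Hmgcs1 and Pmvk the IEKO libraries differed widely among themselves, with IEKO chow 2 lowest, whereas in Dhcr7 they agreed closely. Lss, the cyclase that forms lanosterol, stood at 102, 97.9 and 112 against 90.2, 69.4 and 79.2 CPM (-0.39, adjusted p = 0.14).

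The size of the sterol difference depended on the IEKO library. Against the floxed mean, the median of the 26 genes was -0.10 in IEKO chow 1, -0.63 in IEKO chow 2 and -0.35 in IEKO chow 3. Their summed level was 5333 to 5369 CPM in floxed against 3750 to 5017 CPM in IEKO. The share of counts in mitochondrial genes, given above, and in the abundant non-coding locus Gm26917 (2.19%, 3.19% and 2.83% in IEKO chow 1, 2 and 3, and 1.99% to 2.39% in floxed) had the same order over these libraries, and their part in the difference was not tested. Without IEKO chow 1, 17 of 26 were called as lower, while 137 of all 17941 genes tested in that fit were called as lower. Without IEKO chow 2 the median was -0.21 and 10 of 26 were lower at an unadjusted p under 0.05 (3.47% of all genes). In the 2-against-2 comparison the median was -0.33 and 9 of 26 were lower (1.87% of all genes). On HFD the median was -0.10. Genes of sterol uptake, storage, efflux and control stood the other way in part: 8 of 10 had a log2 fold change above 0, with a median of 0.13. Among them the efflux pump gene Abca1 stood at 31.3, 33.9 and 33.7 CPM in floxed against 38.3, 67.2 and 54.4 CPM in IEKO (0.69, SE 0.16, adjusted p = 0.15). Abcg1, another efflux gene, was lower, at 4.88, 5.73 and 4.92 CPM in floxed against 4.18, 4.03 and 4.71 CPM in IEKO (-0.26, adjusted p = 0.39). In the related list of fatty acid synthesis, 13 of 15 lay below 0. There the desaturase gene Scd2 stood at 651, 647 and 655 CPM in floxed against 523, 443 and 475 CPM in IEKO (-0.44, SE 0.10, adjusted p = 0.14).

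Levels of MHC class II genes lay mostly under those of the floxed group as well. Class II molecules present peptides to CD4+ T cells and are made by B cells, dendritic cells and macrophages, and by the intestinal epithelium itself. All 11 tested genes had a log2 fold change below 0, with a median of -0.50, and 7 were lower at an unadjusted p under 0.05 (5.68% of all genes). For 10 of the 11 all IEKO libraries lay under all floxed ones, as it did for 12.1% of all genes. H2-DMa, which helps load peptides, was called (chromosome 17, 34119541 to 34139101): it stood at 66.7, 58.1 and 75.5 CPM in floxed against 49.5, 40.0 and 44.0 CPM in IEKO, and fell by 0.59 on the log2 scale (SE 0.11, adjusted p = 0.0496). The call was kept in 2 of the 12 fits that left out 1 library. H2-DMa overlaps Brd2 in the annotation, and Brd2 had a log2 fold change of 0.08.

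The most abundant of these genes shared the order of the floxed libraries. Cd74, the invariant chain, stood at 1203, 1028 and 1309 CPM in floxed against 756, 751 and 782 CPM in IEKO (log2 fold change -0.63, SE 0.13, adjusted p = 0.087). H2-Aa stood at 633, 549 and 722 against 455, 394 and 425 CPM (-0.58, SE 0.15, adjusted p = 0.18), and H2-Eb1 at 304, 251 and 346 against 230, 196 and 220 CPM (-0.48, SE 0.12, adjusted p = 0.15). In these 3 genes floxed chow 2 was the lowest floxed library and still lay above every IEKO library. The summed level ran from 2554 to 3366 CPM in floxed against from 1863 to 2118 CPM in IEKO. Between 6 and 7 of the 11 genes were lower at an unadjusted p under 0.05 in every fit that left out 1 chow library and in the 2-against-2 comparison, where the median was -0.58. The share of all genes lower in these fits ran from 1.87% to 9.95%. On HFD the median was 0.07, and the genotype difference of 6 of the 11 was higher on HFD than on chow at an unadjusted p under 0.05, against 2.61% of all genes; none passed the interaction test after adjustment.

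Markers of immune cells lay mostly below 0 as the class II genes did, without a call. All 14 T cell markers lay below 0 with a median of -0.48, and their summed level was 172 to 201 CPM in floxed against 102 to 182 CPM in IEKO, an overlap. All 14 B and plasma cell markers lay below 0 with a median of -0.33, with a sum of 1499 to 1519 CPM in floxed against 1113 to 1374 CPM in IEKO. Of 12 tested myeloid markers 10 lay below 0, with a median of -0.23. None of these markers was called by edgeR, although 9 T cell, 1 B cell and 4 myeloid markers were lower at an unadjusted p under 0.05 (5.68% of all genes). DESeq2 called 1, 0 and 0 of them as lower (0.235% of all genes), and limma voom 11, 4 and 6 (16.1%). These counts moved with the libraries. Without IEKO chow 2, 4, 0 and 0 were lower at an unadjusted p under 0.05 (3.47% of all genes). In the 2-against-2 comparison 3, 0 and 0 were lower (1.87% of all genes). The T cell medians were -0.19, -0.77 and -0.41 in IEKO chow 1, 2 and 3. The T cell receptor gene Trac stood at 3.69, 2.84 and 3.27 CPM in floxed against 2.10, 1.13 and 1.81 CPM in IEKO (log2 fold change -0.96, adjusted p = 0.13). Cd79b, the B cell receptor chain, stood at 17.6, 14.1 and 19.9 against 12.3, 9.42 and 11 CPM (-0.66, adjusted p = 0.50). The part of these cells in the class II difference was not tested.

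Promoters of Mvk and of a pair of class II genes are shown because both groups lay mostly below 0 and some members of each hold the same short motif. Capitals mark CTGATTGG, the Y box of class II promoters, on either strand. Sequences are from RefSeq, GRCm38.p6, in the direction of transcription, at chr5:114444019-114444318 (plus strand) for Mvk, chr17:34287774-34288073 (minus strand) for H2-Aa and chr17:34305617-34305916 (plus strand) for H2-Eb1.
Mvk: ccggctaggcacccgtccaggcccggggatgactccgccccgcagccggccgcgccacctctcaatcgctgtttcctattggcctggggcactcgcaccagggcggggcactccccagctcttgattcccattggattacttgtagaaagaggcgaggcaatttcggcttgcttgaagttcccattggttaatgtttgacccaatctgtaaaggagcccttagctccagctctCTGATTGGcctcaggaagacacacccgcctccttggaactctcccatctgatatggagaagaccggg
H2-Aa: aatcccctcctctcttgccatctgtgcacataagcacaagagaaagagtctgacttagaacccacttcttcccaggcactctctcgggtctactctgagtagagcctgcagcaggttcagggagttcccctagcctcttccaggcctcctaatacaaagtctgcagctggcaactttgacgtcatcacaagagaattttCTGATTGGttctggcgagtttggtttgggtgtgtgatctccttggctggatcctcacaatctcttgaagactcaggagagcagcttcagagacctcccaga
H2-Eb1: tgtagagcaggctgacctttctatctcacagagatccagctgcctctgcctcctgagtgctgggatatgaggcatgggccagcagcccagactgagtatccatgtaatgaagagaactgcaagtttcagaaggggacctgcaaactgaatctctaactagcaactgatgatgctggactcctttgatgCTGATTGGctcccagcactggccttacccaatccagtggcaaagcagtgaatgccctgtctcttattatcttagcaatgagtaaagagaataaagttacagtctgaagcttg
These letters occur in 4 of the 8 class II genes with a promoter on record, and in 6 of 18 cholesterol synthesis genes (Ebp, Idi1, Lss, Mvk, Sc5d and Tm7sf2), beside 5.74% of 11676 tested genes and 4.10% of all promoters. H2-DMa, the class II gene that was called, is among the 8 and has no match. The match describes letters only, and a shared regulator of these groups was not tested. TCACNCCAC, the core of the sterol response element, was present in 1 of the 18, Hmgcs1, and in 1.24% of all promoters. The consensus direct repeat of PPAR and RXR was in none of 34 PPARA targets and 0.0396% of all promoters, which says only that these letters are not in these windows.

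**Figure D3:**
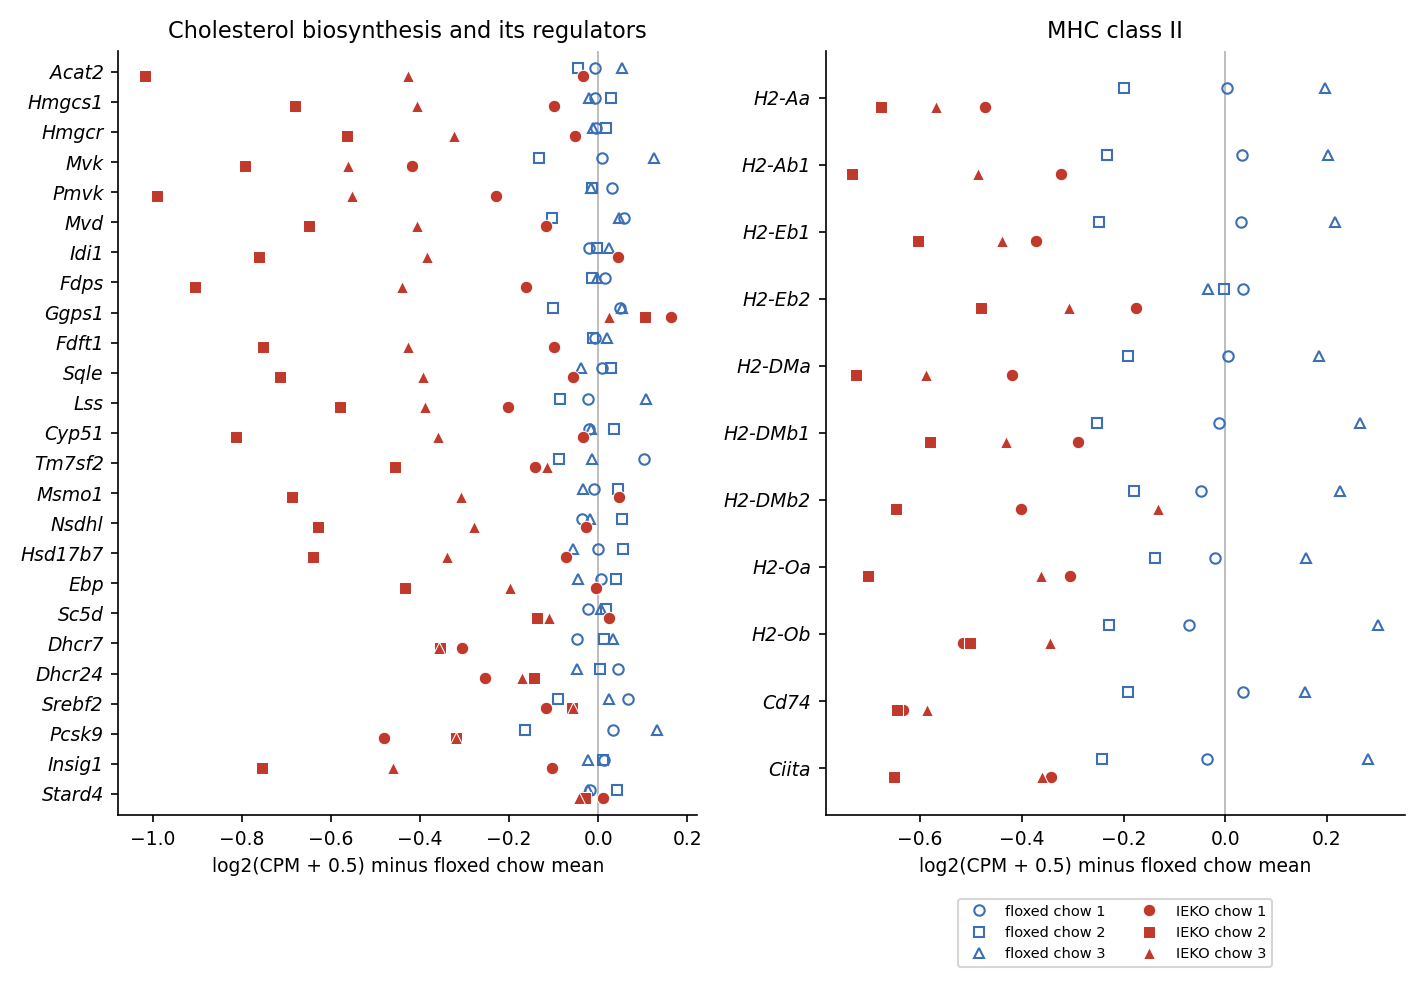
Level of 25 of the 26 cholesterol synthesis genes (left) and of the 11 MHC class II genes (right) in each chow library, as log2(CPM + 0.5) minus the mean of the floxed chow libraries (horizontal axis), with 1 point per library. The class II medians of IEKO chow 1, 2 and 3 are -0.37, -0.65 and -0.43, whereas the cholesterol medians over all 26 spread from -0.10 to -0.63.

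Genes of xenobiotic metabolism that respond to the nuclear receptors PXR and CAR spread widely, with most above the floxed level. Of 19 tested 15 lay above 0, with a median log2 fold change of 0.47, and 9 were higher and 1 lower at an unadjusted p under 0.05, against 7.35% and 5.68% of all genes. Ces2a, described above, was called. Cyp3a11, a major drug-metabolising enzyme, stood at 3.49, 3.27 and 3.44 CPM in floxed against 7.97, 34.5 and 23.7 CPM in IEKO (log2 fold change 2.69, SE 0.45, adjusted p = 0.076). Its paralog Cyp3a25 stood at 21.8, 22.2 and 22.5 against 34.7, 59.7 and 48.1 CPM (1.10, SE 0.18, adjusted p = 0.052). The groups did not overlap in either gene, and IEKO chow 2 was highest and IEKO chow 1 lowest of its group. The list median was 0.06 in IEKO chow 1, 0.68 in IEKO chow 2 and 0.36 in IEKO chow 3. Without IEKO chow 2 the list median was 0.28, with 5 genes higher at an unadjusted p under 0.05 (3.98% of all genes). On HFD it was -0.12, and the genotype difference of 10 genes was lower on HFD than on chow at an unadjusted p under 0.05, against 3.73% of all genes, with none past the adjusted threshold.

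The 3 IEKO chow libraries differed from one another more than the floxed ones. The biological coefficient of variation, the gene-level spread beyond counting noise, was 0.151 in IEKO chow and 0.0583 in floxed chow. Of the 577 genes that differed at least 1.5-fold between IEKO chow 1 and 2, 278 were higher and 299 lower in library 2, and the floxed mean lay nearer library 1 for 474 (82.1%). Lct, the lactase gene, stood at 2.23, 2.75 and 2.01 CPM in floxed against 0.453, 102 and 57.6 CPM in IEKO. Fgf15, the hormone by which ileum limits bile acid synthesis in liver, stood at 15.9, 16.7 and 12.1 against 15.1, 109 and 69.3 CPM. The glucose transporter gene Slc2a2 stood at 5.02, 5.53 and 4.86 against 0.719, 29.7 and 15.3 CPM. In each of these genes IEKO chow 1 lay within or below the floxed range while the other two were far above it, and none was called (adjusted p of 0.27, 0.25 and 0.48).

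Listed genes among the 577 divided by direction. The 10 cholesterol synthesis genes and the 17 interferon and MHC class I genes were all lower in library 2, and the 6 xenobiotic genes and the 6 circadian clock genes were all higher. The clock gene Per1 stood at 23.2, 24.1 and 23.0 CPM in floxed against 20.5, 38.4 and 29.0 CPM in IEKO. Plb1, the brush border phospholipase, stood at 28.7, 30.1 and 26.3 against 14.5, 236 and 138 CPM. Cyp2b10, a CAR target, stood at 0.456, 0.579 and 0.530 against 0.240, 8.06 and 4.29 CPM. For all 3 the level in IEKO chow 1 lay below every floxed library and that in IEKO chow 2 above.

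**Figure D4:**
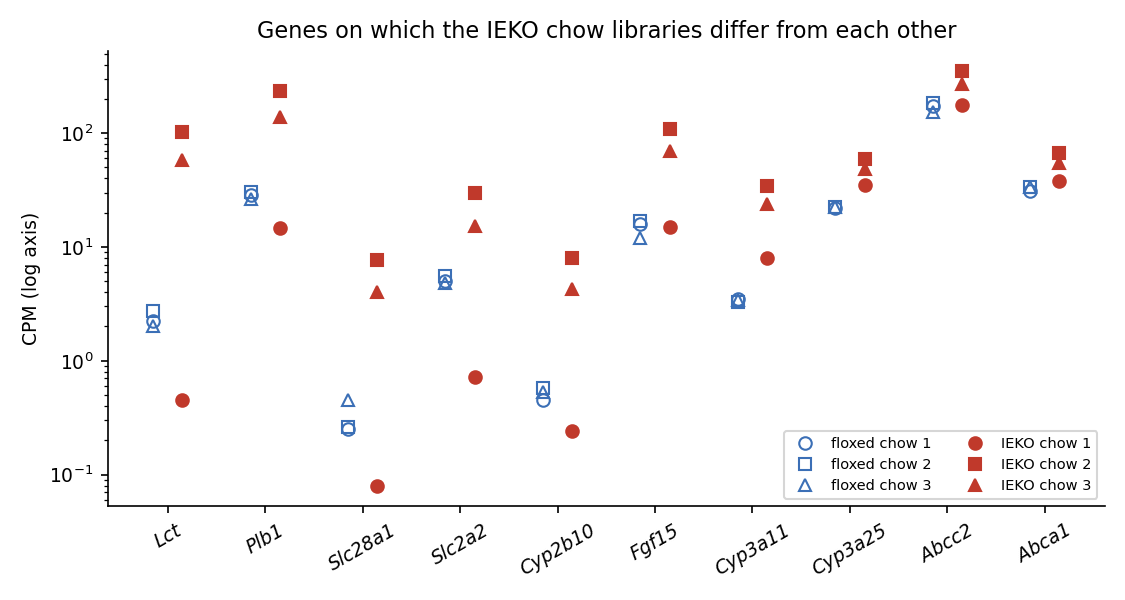
Levels in CPM (vertical log axis) of 10 genes in each of the 6 chow libraries, with 1 point per library. IEKO chow 3 lies between IEKO chow 1 and 2 in each gene; Lct runs from 0.453 to 102 CPM over the IEKO chow libraries, while its floxed libraries lie at 2.01 to 2.75 CPM.

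Markers of proliferation and of other epithelial cells gave no call by edgeR. All 24 tested proliferation genes lay below 0, with a median log2 fold change of -0.25. At an unadjusted p under 0.05, 7 were lower (5.68% of all genes), and 1 in the 2-against-2 comparison (1.87% of all genes). DESeq2 called 0 of the 24, and limma voom 18 as lower (16.1% of all genes). Of these Mki67 stood at 172, 180 and 169 CPM in floxed against 155, 152 and 143 CPM in IEKO (-0.21, adjusted p = 0.32). Of 17 Paneth cell genes 15 lay below 0, with a median of -0.29. At an unadjusted p under 0.05, 9 were lower (5.68% of all genes), and none in the 2-against-2 comparison (1.87% of all genes). DESeq2 called 0 of the 17, and limma voom 12 as lower, beside 16.1% of all genes. The defensin gene Defa29, which shares sequence with its family and is uncertain on its own, stood at 79.3, 92.2 and 72.6 against 58.1, 58.6 and 59.1 CPM (-0.47, adjusted p = 0.31). Goblet cell genes had a median of 0.04, with the mucin gene Muc2 at 5488, 5185 and 5720.4 CPM in floxed against 6025, 6689 and 6405 CPM in IEKO (0.22, adjusted p = 0.41). The 5 blood genes lay below 0 with a median of -0.82, from a sum of 22.3 to 28.8 CPM in floxed to 10.7 to 18.8 CPM in IEKO.

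A fit of the 6 chow libraries alone, without the HFD libraries' spread, called 54 of 16760 genes (0.322%), of which 30 were higher (0.179%) and 24 lower (0.143%), and 18 of the 22 called above were among them. Pck1, which encodes the gluconeogenic enzyme PEPCK, was among the genes it added. Pck1 stood at 46.4, 44.6 and 47.4 CPM in floxed against 86.5, 89.9 and 87.2 CPM in IEKO, a tight and clear separation (log2 fold change 0.93, adjusted p = 0.00033 in the chow fit and 0.40 in the fit of all groups). On HFD its log2 fold change was -0.74 and did not pass. Scpep1, a serine carboxypeptidase gene, stood at 133, 124 and 138 against 86.0, 67.6 and 73.1 CPM and fell in the chow fit (-0.80, adjusted p = 0.0094 there and 0.20 in the fit of all groups). Hbegf, an EGF receptor ligand, stood at 15.2, 16.4 and 11.9 CPM in floxed against 25.1, 23.7 and 25 CPM in IEKO (0.77, adjusted p = 0.030 in the chow fit and 0.30 in the fit of all groups). Hba-a1, a globin gene of red cells, stood at 6.20, 6.20 and 4.30 against 1.92, 2.90 and 2.32 CPM (-1.22, adjusted p = 0.048 and 0.17).

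The 7 called immunoglobulin segments carry the antibody repertoire and moved both ways, 5 lower and 2 higher. They are 7 of 146 tested V segments, of which 86 lay below 0 with a median log2 fold change of -0.24. Ighv2-4 stood at 1.94, 1.56 and 1.61 CPM in floxed against 0.0799, 0 and 0.0604 CPM in IEKO, and Igkv12-38 at 1.41, 1.22 and 1.14 against 0.0533, 0 and 0 CPM. Ighv1-22 stood at 0.752, 0.492 and 1.08 CPM in floxed against 2.93, 2.71 and 2.87 CPM in IEKO. Each was all but absent from one genotype on chow, or several times lower there. Segments are near copies of one another, so single values are uncertain. Over 83 V genes, libraries correlated at 0.896 to 0.963 within floxed chow and at 0.603 to 0.888 within IEKO chow. Libraries of different groups correlated at 0.292 to 0.778. Whether the libraries of a group are independent samples of the repertoire was not tested, so these calls cannot be assigned to genotype. The summed share of counts in immunoglobulin genes was 0.164%, 0.170% and 0.163% in floxed and 0.15%, 0.126% and 0.134% in IEKO.

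The HFD libraries, which are other samples, gave the same sign for most of the called genes outside the segments. Of the 15 genes outside the segments 14 had the same sign on HFD, and of the 7 segments 2 did, whereas 62.8% of all tested genes had the same sign on both diets. Mt1, Klf6 and Gm15675 were also called on HFD, where 0.29% of genes were called, and 7 of the 15 reached an unadjusted p under 0.05 in the same direction (13% of all genes in either direction). The interaction of genotype and diet was under 0.05 unadjusted for 10 of the 15 (6.34% of all genes), but no gene of the 15 passed after adjustment. 1 gene of all tested did (0.00568%), and it was the segment Ighv1-22.

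**Figure D5:**
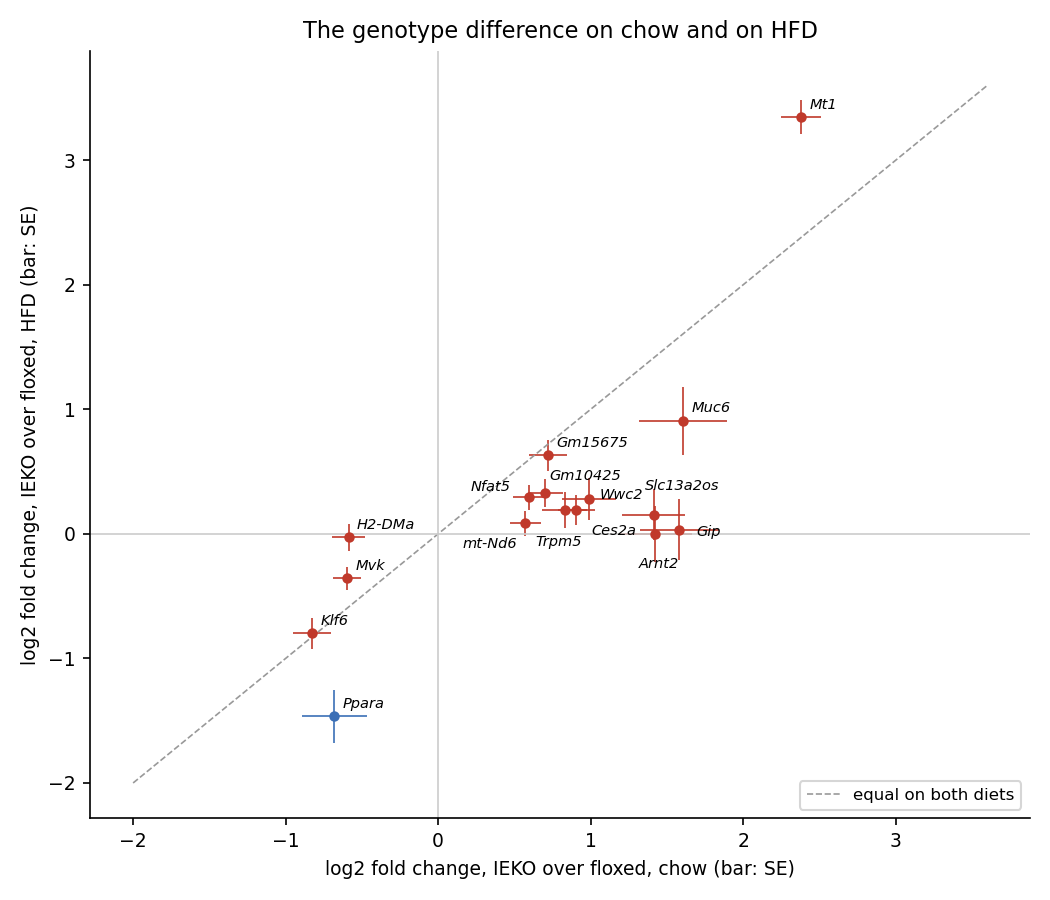
Log2 fold change of IEKO over floxed on chow (horizontal axis) and on HFD (vertical axis) for Ppara and the 15 called genes outside the immunoglobulin segments, with bars of 1 SE and a dashed line where both are equal. Mt1 lies at 2.38 on chow and 3.35 on HFD, Klf6 at -0.83 and -0.80 near the line, and Gip at 1.58 and 0.03.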

How the data were processed

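Bulk RNA-seq libraries of mouse intestine were prepared with the TruSeq stranded kit for total RNA, per the labels' protocols. The authors deposited 1 table of expected counts (read numbers estimated per gene, without scaling between libraries), in which 12.3% to 13.2% of genes per library carry a fraction. The tools RSEM, STAR, Picard and Trimmomatic and the build mm10 are named, without versions, in the submitters' processing notes. No annotation release or strand setting is given in the sources used here. RSEM divides reads among similar genes, so near copies (immunoglobulin segments, defensins, carboxylesterases, cytochromes, histones) are uncertain.

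Expected counts were rounded, which left 18677 of 47643 genes without a count in any library, and tested with edgeR 4.0.16 in R 4.3.3 (robust quasi-likelihood fit, TMM factors, filterByExpr at its defaults) in 1 fit of 4 group means over all 12 libraries. Benjamini-Hochberg adjustment ran over 17602 genes, with a threshold of 0.05. The other settings were DESeq2 1.42.0 (Wald test, and its size factors in edgeR), limma 3.58.1 voom with sample weights, other filters on low counts (none, or 50 counts in 3 libraries), the chow groups alone, a block for the replicate number, fits without 1 library at a time, and both intermediate chow libraries left out. The code was tested on simulated data. Symbols and mm10 coordinates come from GENCODE vM21 (47224 IDs matched), and promoter sequences from RefSeq (GRCm38.p6), with 11676 tested genes matched.

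Text names Ppara, the called genes, up to 10 genes each way called in the chow groups alone (mean log2 CPM at least 1, no overlap), up to 4 members of each of 36 pathway and 19 cell type lists with the smallest p, and the 8 genes of widest range within each chow group. Defining genes of a list or process (Cpt1a, Hmgcs1, Epcam, Vil1, Slc13a2, Exoc3l4, Brd2, Cd55, Gm15674 and Gm26917) were added after their values were seen. So was mt-Nd5, the neighbour of mt-Nd6. Genes, lists and tests were chosen with earlier results of these data known. A few genes of the lists are counted with their list but not reported singly here.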

Additional observations from a re-analysis of the deposited data

Results flagged for a closer look

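The immunoglobulin heavy chain segment Ighv1-22 was the 1 gene whose genotype difference passed the test of a difference between diets. On chow it stood at 0.774 ± 0.294 CPM in floxed and 2.84 ± 0.113 CPM in IEKO (SD, n = 3 each), and on HFD at 1.82 ± 0.064 CPM in floxed and 1.15 ± 0.206 CPM in IEKO. The interaction on the log2 scale was -2.49 (SE 0.34, adjusted p = 0.046 by edgeR's quasi-likelihood test). Every IEKO chow library lay above every floxed chow library. The floxed chow libraries were alike in their V genes, as given above, and whether they are independent samples of the repertoire was not tested. The interaction call was lost with the filter of 50 counts in 3 libraries, with the replicate block and without both intermediate chow libraries.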

How the results depend on the processing

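The count of 22 genes called on chow moved with most settings. It was 183 with the DESeq2 Wald test, 5467 with limma voom and sample weights (weights of 0.372, 0.476 and 8.12 for IEKO chow 1, 2 and 3), 49 without a filter, 54 with the chow groups alone and 1 (Mt1) without floxed chow 1 and IEKO chow 3. Leaving out 1 library gave 1 to 517 calls: 517, 6 and 1 without IEKO chow 1, 2 and 3, 1, 7 and 8 without floxed chow 1, 2 and 3, and 13 to 45 without an HFD library (45 without floxed HFD 1). It was 28 with DESeq2 size factors and 27 with the filter of 50 counts. Of the 22, DESeq2 kept 17, voom 22 and the chow groups alone 18. The cause was not tested.

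Replicate numbers did not pair the samples (correlations of deviations of -0.015, 0.019 and 0.003). With the replicate number as a block, calls numbered 14 over all libraries and 48 over the chow groups, and the log2 fold change of Ppara was -0.69 and -0.71.

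The 1 interaction call among the 22 became 10 with DESeq2, 12 with voom and 3 without a filter, and 0 with the filter of 50 counts, with the replicate block and without both intermediate libraries; leaving out 1 library gave 0 to 4. Ppara passed with DESeq2 (-0.68) and voom (-0.62) and with no other setting run. No named gene reversed as a call: 4525 comparisons kept their side of the threshold, 256 gained and 166 lost a call. List medians changed sign in 42 comparisons over 20 lists, none of them cholesterol synthesis or MHC class II.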

Other observations

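Chromosome 8 held 4 of the 15 called genes outside the immunoglobulin segments (26.7%: Mt1, Ces2a, Nfat5 and Wwc2) and 5.06% of the tested genes, and the median log2 fold change over its 891 tested genes was -0.01. These 4 genes were grouped after their values were seen, and no test was made.

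The log2 fold change followed the annotated exon length of the genes. With protein-coding genes split by length into 4 classes of equal size, the median was -0.09 in the shortest class (up to 2197 bases), -0.04 and 0.00 in the middle classes and 0.05 in the longest. In IEKO chow 2 alone the medians ran from -0.16 to 0.10, and in IEKO chow 1 they lay between -0.01 and -0.02. Respiratory chain genes had a median length of 1763 bases, MHC class II genes 1669 bases and cholesterol synthesis genes 3493 bases. The part of length in the list medians was not tested.

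Several scarce or repeated genes had wide ranges within the floxed group as well. Pagr1a stood at 0.251, 13.8 and 15 CPM in floxed against 0.186, 3.53 and 0.302 CPM in IEKO. The small nuclear RNA gene Rnu1b6, one of several near copies, stood at 10.1, 0.319 and 12.5 CPM in floxed against 15.8, 0.0263 and 11.8 CPM in IEKO.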
